A study of Mus musculus with 3 samples.

Results

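The genes described here encode the heat-shock proteins, their co-chaperones, the cytosolic chaperonin ring and the heat-shock transcription factors of the mouse. Members were chosen by symbol alone: names starting with Hspa, Hspb, Hspd, Hspe or Hsph, with Hsf and a digit, with Dnaja, Dnajb or Dnajc, with Cct and a digit, with Bag and a digit, and Tcp1, provided that the annotation gives the gene a protein-coding transcript. The rule found 92 genes among 55536 genes in the tables, of which 22028 are protein-coding. HSP90 genes are not matched by it and are given only as neighbours of the pathway, and Cct6a, a chaperonin subunit gene, is left out because annotation release M21 gives it no protein-coding transcript.

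Proteins of the HSP70 family bind exposed hydrophobic stretches of unfolded proteins in cycles of ATP binding and hydrolysis. J-domain proteins of the DNAJA, DNAJB and DNAJC classes bring substrates to HSP70 and start hydrolysis. Nucleotide exchange factors, among them HSP110 and several BAG proteins, end the cycle. The chaperonin made of Tcp1 and the Cct subunits encloses actin, tubulin and other proteins in a double ring while they fold. The transcription factor Hsf1 is held inactive in unstressed cells and, after heat or proteotoxic stress, binds heat-shock elements in the promoters of inducible chaperone genes.

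Total RNA was measured in 3 libraries of CD3 T cells from the spleen, which form 1 group without a treatment and without a control group. All came from B6CASTF1/J mice, first-generation hybrids whose mothers were C57BL/6 and whose fathers were CAST/EiJ, labelled female and adult at 66 days, and each library started from 300 ng of RNA. The labels give 1 donor record for all 3 biosamples, so nothing shows that the libraries came from separate mice, and SDs and p-values below cover a spread that may be only technical. Libraries held 16.9, 15.0 and 16.2 M estimated counts in replicates 1, 2 and 3, and a count of 0 allows a true mean of at most 3 counts, for counting error only. Listed T-cell markers summed to 2486 to 2684 TPM (an abundance per effective transcript length, with the same total in each library), with 8 of 8 at 10 TPM or more. The highest sum of another listed cell type was 63.6 TPM, for 3 erythroid genes, and each listed marker had counts in at least 1 library. Values below are means ± SD over the 3 libraries unless a library is named, and TPM levels can be set side by side between genes because they are per length.

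Most chaperone genes were detected. At 1 TPM or more in all 3 libraries were 65 of 92 members, against 44.7% of all protein-coding genes. At 10 TPM or more in all 3 libraries were 42 members, against 25.4% of protein-coding genes, and 6 members exceeded 100 TPM in every library. The median member had a level of 3.34 ± 0.04 as log2(TPM + 1), against 0.56 ± 0.03 for the median protein-coding gene. Members at the edge of the detection limit were Hspa1a, at 1.22 TPM in its lowest library, and Dnajb13, at 0.84 TPM in its lowest. At the limit of 10 TPM, Hspb11 stood just inside with 11.03 TPM in its lowest library and Bag5 just outside with 9.60 TPM.

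Of the members below the detection limit, 10 were listed at 0 in all libraries, 13 were below 1 TPM without being at 0 throughout, and 4 were above it in some libraries and below it in others. The 10 at 0 were Dnajb7, Dnajb8, Dnajc5b, Dnajc5g, Dnajc22, Hsf3, Hspa1l, Hspb3, Hspb7 and Hspb8. All members together held 3087 ± 40.3 TPM, which was 0.310% of all TPM and 0.874% of the TPM of protein-coding genes. By summed TPM the HSP70 class came first with 1024 ± 34.2, followed by the chaperonin class with 562 ± 19.7 and the DNAJC class with 486 ± 12.9. DNAJB genes summed to 262 ± 5.21 TPM and DNAJA genes to 250 ± 13.1 TPM. BAG genes held 186 ± 4.46 TPM and HSP110 genes 115 ± 3.30 TPM. The mitochondrial chaperonin pair of HSP60 and HSP10 held 107 ± 4.57 TPM, and the small heat-shock genes 12.6 ± 0.465 TPM.

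**Figure D1:**
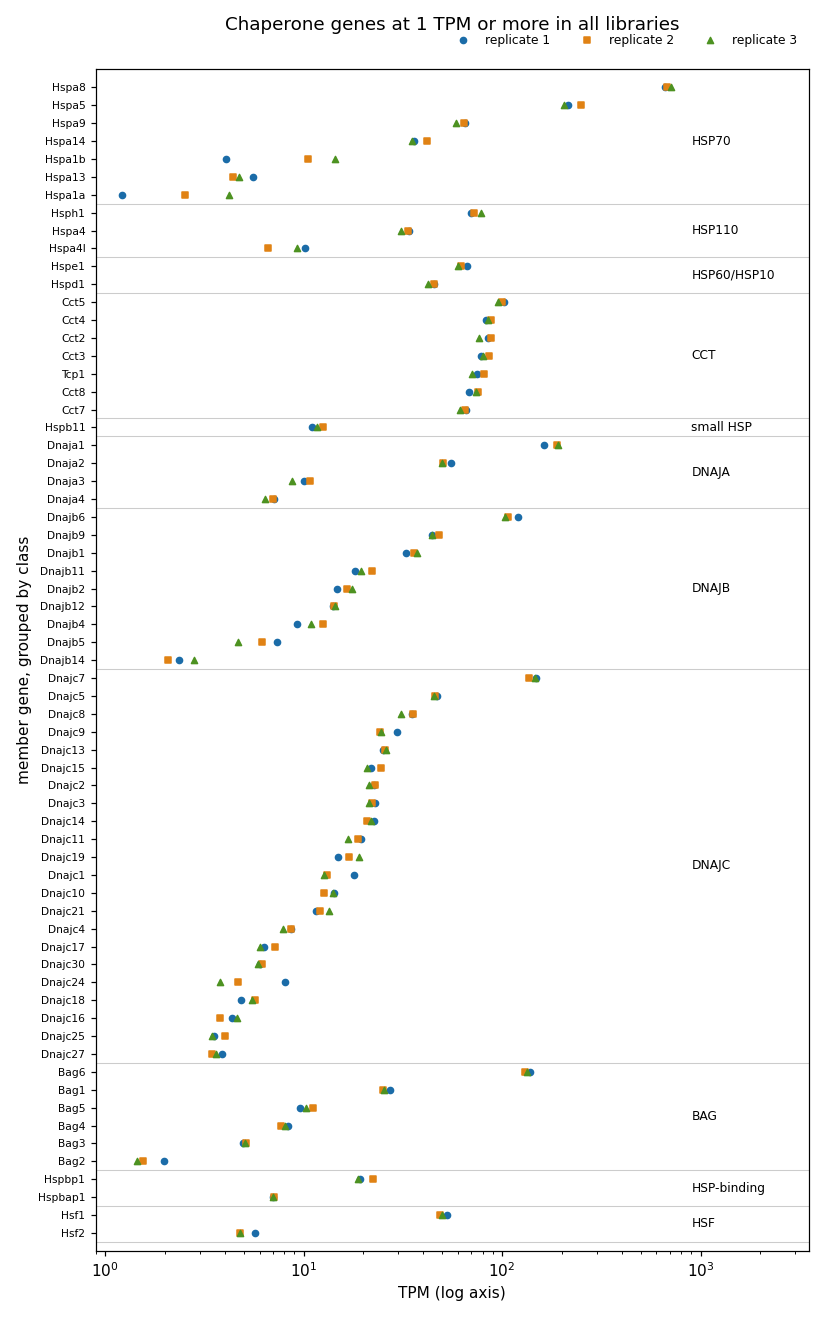
TPM on a log axis of the 65 members at 1 TPM or more in all 3 libraries, grouped by class, with 1 point per library. Hspa8 stands alone at the right between 659 and 712 TPM, and the points of Hspa1b and Hspa1a spread more widely than those of their neighbours.

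Promoter sequences are shown first because the members that varied between the libraries belong to the heat-inducible set. The 300 bases from 250 before to 50 after each annotated start, taken from RefSeq on build GRCm38.p6, were searched for the 76 of 92 members with an entry. The 16 members not searched were Hspa8, Hspa9, Hspa13, Hspb2, Hsf1, Hsf4, Cct4, Bag4, Dnajc2, Dnajc5, Dnajc5b, Dnajc11, Dnajc12, Dnajc18, Dnajc22 and Dnajc30. A heat-shock element of 3 alternating units was searched on both strands as GAA, TTC and GAA, or TTC, GAA and TTC, with any 2 bases between units. It was found in 4 members, Hspd1, Hspe1, Dnajb6 and Hsph1, which is 5.26% of the members with an entry, against 0.662% of all genes with one. Hspd1 and Hspe1 were counted separately although their match is the same stretch. The shorter form of 2 units, GAANNTTC, reads the same on both strands and lies inside the longer form. That form was found in 17 members, 22.4%, against 9.04% of all genes. Beside the 4 above they were Hspa1a, Hspa1b, Hspb1, Dnaja1, Bag3, Cct2, Cct8l1, Dnaja4, Dnajc5g, Dnajc27, Hspb3, Hspb6 and Hspb8. Dnajb1 and Dnajb4, which are among the heat-responsive members listed below, had neither form in their windows. A match describes letters in this window and is not evidence that a factor binds there. Below, lower-case letters are flanks and capitals mark the matching units, each sequence running 5′ to 3′ on the strand of its gene.
Hspd1, chr1:55088053-55088082, minus strand: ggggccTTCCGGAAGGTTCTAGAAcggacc
Hspe1, chr1:55088053-55088082, plus strand: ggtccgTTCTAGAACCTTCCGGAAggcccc
Dnajb6, chr5:29735846-29735870, plus strand: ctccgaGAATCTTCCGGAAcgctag
Hsph1, chr5:149636282-149636306, minus strand: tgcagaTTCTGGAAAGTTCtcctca

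Hspd1 and Hspe1, which encode the HSP60 and HSP10 subunits of the mitochondrial chaperonin, are neighbours transcribed in opposite directions on chromosome 1. The same stretch lies in a promoter window of both. It holds 2 overlapping copies of the 3-unit form. The first starts at position -144 relative to 1 of the listed Hspd1 starts and at -89 relative to the Hspe1 start. The window of the other listed Hspd1 start held no such element. The stretch overlaps an untranslated exon of Hspd1. For Dnajb6 the element began at -46 relative to 1 of its listed starts and overlapped an untranslated exon of Dnajb6 and a coding exon of Gm5129. For Hsph1 the element began 15 bases after 1 of its listed starts and 36 after the other, in an untranslated exon.

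Hspa1a and Hspa1b encode the heat-inducible HSP70 proteins, and lie beside each other on the minus strand of chromosome 17, at chr17:34969190-34972156 and chr17:34956436-34959238. Their promoter windows had the same base at 296 of 300 positions, with 1 unbroken identical run of 201 bases from position -203 to -3 relative to the start. A 60-base stretch of that run is shown because it holds the 2-unit element in both genes, at -104 and outside any annotated exon.
Hspa1a, chr17:34972227-34972286, minus strand: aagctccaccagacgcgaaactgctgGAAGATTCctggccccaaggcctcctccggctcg
Hspa1b, chr17:34959309-34959368, minus strand: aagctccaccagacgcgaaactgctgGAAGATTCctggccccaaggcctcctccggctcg

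Hspa8 encodes the constitutive cytosolic HSP70 and had the highest level of any member, with 659, 677 and 712 TPM in replicates 1, 2 and 3. It held 66.6 ± 2.13% of the summed TPM of the HSP70 class. Hspa5, the HSP70 of the endoplasmic reticulum also called BiP, had 214, 249 and 206 TPM, highest in replicate 2. Every Hspa8 value was above every Hspa5 value, and Hspa8 was 3.09 ± 0.37 times as high. Hspa9, the mitochondrial HSP70, had 65.3, 64.3 and 58.9 TPM, and Hspa14, which works at the ribosome, had 35.9, 41.6 and 35.4 TPM. Hspa13, an HSP70-like protein of microsomes, was at 4.90 ± 0.616 TPM. Below these were Hspa2 at 0.890 ± 0.246 TPM, Hspa12a at 0.450 ± 0.156 TPM and Hspa12b at 0.070 ± 0.070 TPM, and Hspa1l, a gene known for its expression in testis, was listed at 0.

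The heat-inducible pair was low and differed between the libraries. Hspa1b had 4.07, 10.5 and 14.5 TPM in replicates 1, 2 and 3, and Hspa1a had 1.22, 2.52 and 4.22 TPM. Both were lowest in replicate 1 and highest in replicate 3, and Hspa1b exceeded Hspa1a in each library, by 3.65 ± 0.46 times. Their sum was 0.803%, 1.93% and 2.62% of the Hspa8 level in replicates 1, 2 and 3.

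HSP110 proteins are relatives of HSP70 that act as its exchange factors. Hsph1, the heat-inducible one, led them with 70.0, 72.1 and 78.6 TPM, highest in replicate 3. Hspa4 had 33.9, 33.7 and 30.9 TPM and Hspa4l 10.2, 6.59 and 9.29 TPM, so that the values of the 3 genes did not overlap. In the mitochondrial chaperonin, Hspe1 had 66.4, 62.3 and 59.9 TPM and Hspd1 45.3, 45.3 and 42.6 TPM. The Hspe1 level exceeded that of its neighbour Hspd1 in each library, by 1.42 ± 0.05 times.

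All 7 ring subunits that are members were at 10 TPM or more in every library, and their order depended on the quantification. In the first, Cct5 was highest with 103, 99.9 and 95.6 TPM in replicates 1, 2 and 3. Cct4 had 82.9, 88.3 and 85.2 TPM and Cct2 85.3, 87.6 and 76.5 TPM. Cct3 had 78.3, 85.7 and 79.8 TPM, and Tcp1, the first subunit of the ring, 75.0, 80.8 and 70.5 TPM. From Cct4 to Tcp1 neighbours in this order overlapped, whereas every Cct5 value was above every Cct4 value. Cct8 had 68.1, 75.3 and 74.2 TPM and Cct7 65.7, 65.1 and 61.5 TPM. Cct8 overlapped with Tcp1, and all Cct8 values were above those of Cct7. The highest of the 7 was 1.55 ± 0.02 times the lowest. In a second quantification deposited from the same reads that ratio was 1.97 ± 0.09, and Cct2 at 141 TPM stood above Cct5 at 124.8 TPM.

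Cct6a, not a member, had 48.9, 52.3 and 48.5 TPM, below every Cct7 value, and with it the ratio of highest to lowest of the 8 subunits was 1.99 ± 0.10. In the second quantification Cct6a had the highest mean of the 8 instead of the lowest, with 149 ± 5.26 TPM against 141 ± 6.98 TPM for Cct2, whose values overlapped with it. The ratio over the 8 subunits was 2.11 ± 0.12 there. Cct6b, the form of that subunit known from testis, was at 0.180 ± 0.123 TPM, and Cct8l1 at 0.020 ± 0.035 TPM. When only protein-coding transcript entries were summed, the ratio over the 7 members was 2.42 ± 0.36 and the order changed. Cct2 at 77.9 TPM and Cct5 at 77.6 TPM then overlapped each other and stood above Cct7 at 46.9, Tcp1 at 42.0, Cct4 at 39.2, Cct8 at 34.6 and Cct3 at 33.4 TPM.

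**Figure D2:**
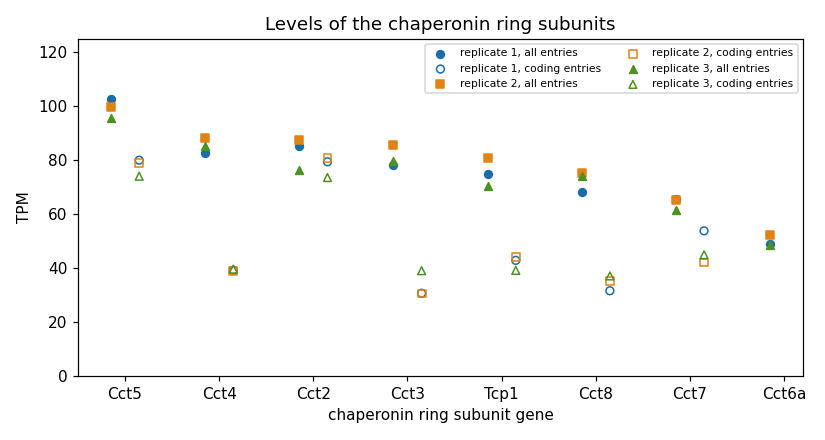
TPM of the 8 ring subunit genes, with 1 point per library, filled for all transcript entries of a gene and open for its protein-coding entries, which Cct6a lacks in this annotation. Filled points lie between 48.5 and 103 TPM, and the open points of Cct4, Cct3, Tcp1 and Cct8 lie well below their filled ones while those of Cct2 stay close.

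Among the small heat-shock genes only Hspb11 passed the detection limit, with 11.03, 12.6 and 11.7 TPM. Despite its symbol, Hspb11 encodes IFT25, a subunit of the intraflagellar transport complex. Hspb6 was at 0.670 ± 0.190 TPM, and Hspb2, Hspb9 and the heat-inducible Hspb1 each had counts in 1 library alone, with means from 0.023 to 0.073 TPM. The other 3, Hspb3, Hspb7 and Hspb8, are known mainly from muscle and were listed at 0, of which Hspb7 had 0.142 TPM in the second quantification.

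J-domain genes made up the largest number of members. In the DNAJA class, Dnaja1, the main cytosolic partner of Hspa8, had 162, 190 and 192 TPM, lowest in replicate 1. Dnaja2 had 55.5, 50.4 and 49.7 TPM, below every Dnaja1 value. Dnaja3, which acts in mitochondria, was at 9.88 ± 1.02 TPM and Dnaja4 at 6.82 ± 0.382 TPM. All 4 DNAJA genes passed 1 TPM.

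Of 13 DNAJB genes, 9 passed 1 TPM. Dnajb6, a suppressor of protein aggregation, led with 120, 107 and 104 TPM, highest in replicate 1. Dnajb9, a BiP partner in the endoplasmic reticulum, had 44.4, 48.0 and 44.5 TPM, and the heat-inducible Dnajb1 had 32.8, 36.1 and 37.1 TPM. Dnajb1 was lowest in replicate 1, and all its values were below those of Dnajb9. Dnajb11, another BiP partner, was at 19.9 ± 2.05 TPM, Dnajb2 at 16.3 ± 1.36 TPM, the membrane-bound Dnajb12 at 14.2 ± 0.108 TPM and Dnajb4 at 10.9 ± 1.65 TPM. The lowest detected were Dnajb5 at 6.06 ± 1.31 TPM and Dnajb14 at 2.41 ± 0.368 TPM.

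Of 28 DNAJC genes, 22 passed 1 TPM. Dnajc7, which carries tetratricopeptide repeats that contact HSP70 and HSP90, had 148, 136 and 146 TPM and stood above the rest of its class in every library. Dnajc5, the cysteine string protein of secretory vesicles, was at 46.1 ± 0.832 TPM. Dnajc8 was at 33.9 ± 2.39 TPM, and Dnajc9, a histone chaperone, at 26.1 ± 2.90 TPM. Dnajc13, which acts on endosomes, had 25.7 ± 0.559 TPM. Dnajc15, a mitochondrial inner membrane protein known to restrain respiration in CD8 T cells, was at 22.5 ± 1.90 TPM. The other detected genes of the class ranged from 3.65 TPM for Dnajc27 to 22.3 TPM for Dnajc2. Dnajc24 varied most among the DNAJC genes at 1 TPM or more by its values, with 8.03, 4.65 and 3.79 TPM, a gene named after its values were seen.

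Among the BAG genes, several of which encode HSP70 exchange factors, Bag6 stood apart with 138, 131 and 134 TPM. Bag6 takes part in the targeting and quality control of membrane proteins and was 5.19 ± 0.08 times as high as Bag1, which had 27.2, 25.1 and 25.6 TPM. That ratio is of all transcript entries. In protein-coding entries the gap was smaller, with 76.7 ± 2.38 TPM for Bag6 and 25.9 ± 1.09 TPM for Bag1. Bag5 was at 10.3 ± 0.755 TPM, Bag4 at 8.04 ± 0.313 TPM, the heat-inducible Bag3 at 5.04 ± 0.087 TPM and Bag2 at 1.66 ± 0.285 TPM. Hspbp1, another HSP70 exchange factor, was at 20.1 ± 2.00 TPM and Hspbap1 at 7.04 ± 0.070 TPM. Hsf2bp, which encodes a binding partner of HSF2, was at 0.103 ± 0.061 TPM.

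Hsf1, the main regulator of the heat-shock response, had 52.7, 48.8 and 49.9 TPM. Hsf2, its partner in part of that response, had 5.66, 4.76 and 4.81 TPM, so that Hsf1 was 9.98 ± 0.58 times as high. Hsf4, known from the lens, was at 0.420 ± 0.072 TPM, Hsf5 at 0.013 ± 0.015 TPM, and Hsf3 was listed at 0. Thus 2 of the 5 factors passed 1 TPM.

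The libraries have no groups to compare, so the spread between them was the quantity tested. Estimated counts were fitted across all genes in edgeR with a common mean, and a gene was called where its dispersion exceeded that of genes of like abundance at a Benjamini-Hochberg adjusted p under 0.05. Across 13280 genes 75 were called, which is 0.565%, and 2 of the 72 members tested were among them. Hspa1b had an adjusted p of 0.000187 from edgeR and Hspa1a an adjusted p of 0.0175, and both called members were the inducible HSP70 genes. Because these 2 genes share long identical stretches, as given below, reads were divided between them and the calls are not independent. As CPM, counts scaled to library size by the trimmed mean of M-values (TMM), Hspa1b had 10.98, 29.5 and 41.4 in replicates 1, 2 and 3 and Hspa1a had 3.44, 7.46 and 12.8. At an unadjusted p under 0.05 were 8 members, 11.1%, against 5.69% of all genes tested. The others were Hsph1, Dnaja1, Hspa5, Dnajb1, Cct3 and Dnajb11, and Hsph1 came nearest with an adjusted p of 0.144 in edgeR.

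Both calls were lost without replicate 1, the library in which the pair was lowest. Without replicate 1, edgeR called 0 of 72 members, against 0.319% of all genes tested. At an unadjusted p under 0.05 were then 4 members, 5.56%, close to the 5.31% of all genes. The adjusted p in edgeR was 0.264 for Hspa1b and 0.485 for Hspa1a. Without replicate 3, Hspa1b kept its call and Hspa1a had an adjusted p of 0.342. That was 1.39% of members, against 0.258% of all genes. Without replicate 2, both were called and Hsph1 was called as well, with an adjusted p of 0.0346. That was 4.17% of members, against 0.623% of all genes. None of the 8 listed cell types, T cells included, had its lowest summed TPM in replicate 1, 4 being lowest in replicate 2 and 4 in replicate 3. TPM and the TMM-scaled counts above are unlike scales. For protein-coding genes at a mean of 10 TPM or more, the median log2 ratio of replicate 3 to replicate 1 was -0.084 by TPM. By TMM-scaled counts it was 0.008, so by TPM genes in general stood higher in replicate 1. B-cell markers summed to 6.55, 9.90 and 4.72 TPM and erythroid markers to 40.4, 63.6 and 32.4 TPM. The part of cell composition in the result was not tested. Fos, an immediate early gene that cell handling can raise, had 80.2, 100.8 and 122 TPM, the same order of libraries as Hspa1b. Fos is on none of the lists used here and was picked singly. Other immediate early genes and the share of all genes with that order were not examined. The part of cell handling in the result was not tested. In a bulk sample, fewer cells with a transcript and less of it per cell cannot be told apart.

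**Figure D3:**
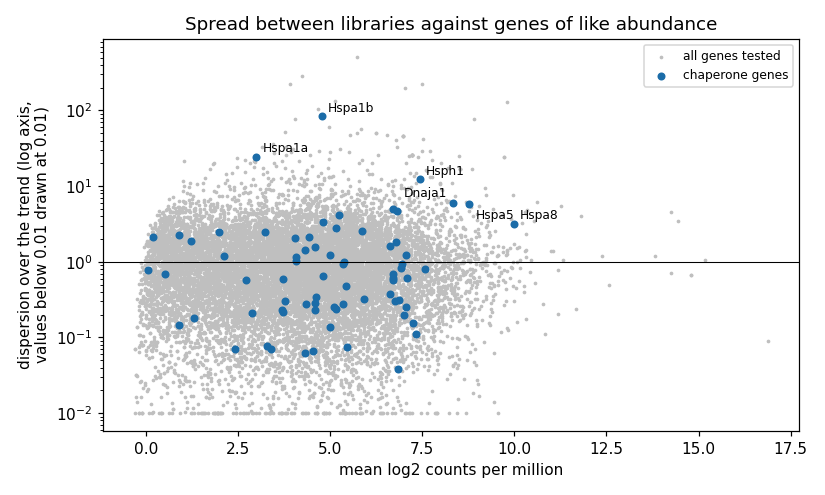
Dispersion between the 3 libraries over the trend of genes of like abundance, on a log axis, against mean log2 CPM for all 13280 genes tested in grey and the 72 members tested in blue. Hspa1b and Hspa1a lie highest among the members, at 83.8 and 24.4 times the trend, and Hsph1 follows at 12.3.

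A list of 11 heat-responsive members, which holds the called pair and also the constitutive Hspa8, was set beside the result. Hspb1 was too low to test. On the TMM-scaled counts 9 of the other 10 were lowest in replicate 1, against 33.7% of all genes tested, and the pair already called is among the 9. Without Hspa8 it was 8 of 9, which still holds the called pair. The list was chosen with earlier results of these data known, so these counts describe its genes and are not a test. Hsph1 had 149, 171 and 197 CPM, Dnajb1 94.4, 108 and 113, and Hspa8 949, 1023 and 1082 in replicates 1, 2 and 3. Dnaja1 had 286, 337 and 336 CPM, Dnajb4 23.9, 30.4 and 28.9, Bag3 12.1, 13.0 and 13.2, and Hspd1 102, 109 and 104. Hspe1 was the exception, with 44.9, 44.0 and 43.5, and it shares windows with another gene, as given below. The lowest library of Hspd1 depended on the scale, since by TPM it was lowest in replicate 3. Over all 72 members tested, 32 were lowest in replicate 1, 21 in replicate 2 and 19 in replicate 3. Apart from the called pair, no difference in this list passed the adjusted threshold.

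**Figure D4:**
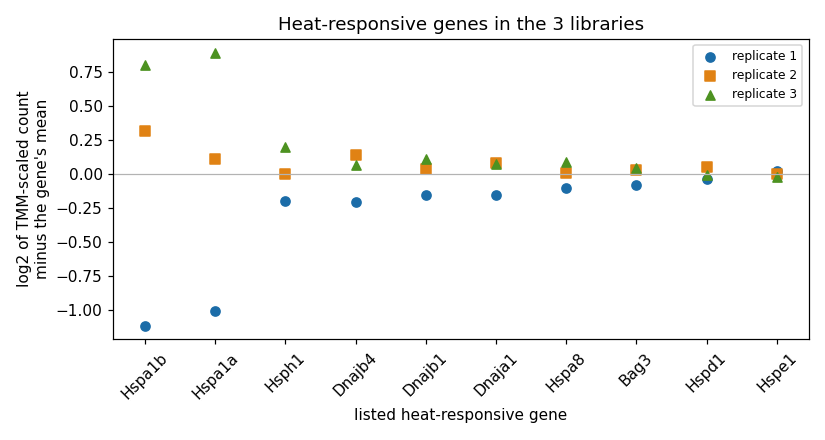
TMM-scaled counts of the 10 listed heat-responsive members that could be tested, as log2 minus each gene's mean over the libraries, with 1 point per library. Replicate 1 is lowest for every gene but Hspe1, and the gap is wide for Hspa1b and Hspa1a, 3.77 and 3.72 times between replicates 3 and 1, and small for Bag3 and Hspd1, 1.09 and 1.02 times.

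Several members share long stretches with other genes, which bears on how reads were divided. Of the 92 members, 19 had at least 1 window of 100 bases in their longest coding transcript that occurs in a transcript of another gene. In Hspa8, 62.8% of windows did, and 58.5% matched Gm15459, a processed pseudogene on chromosome 5. Gm15459 was itself assigned 127, 137 and 137 TPM in replicates 1, 2 and 3, so its level and the Hspa8 level are uncertain in how reads were split. Between Hspa1b and Hspa1a, 49.9% of the Hspa1b windows were shared. The posterior SD of the estimated count, a deposited measure of uncertain assignment, was 9.71% for Hspa1a and 2.90% for Hspa1b, and Hspa1a was the only member with 10 or more counts above 5%.

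Smaller shares of windows were found in Hspb1 with 42.7%, Dnajb6 with 31.0%, Hspd1 with 26.9%, Hspe1 with 20.4%, Dnaja1 with 14.8% and Hspa14 with 13.1%. The Hspa14 windows matched Gm45902, a gene annotated inside the same locus, which was at 7.22 ± 0.535 TPM. Most of the shared Dnaja1 windows matched the processed pseudogene Gm15542, at 15.3 ± 1.32 TPM. The Hspe1 windows matched AC117239.2, a protein-coding gene on chromosome 18, which had 10.73, 14.55 and 19.05 TPM in replicates 1, 2 and 3. In the second quantification AC117239.2 was at 2.32 ± 0.216 TPM. The part of this split of reads in the order of libraries for Hspe1 was not tested. No such window was found in the longest coding transcripts of Tcp1, Cct2, Cct3, Cct4, Cct5, Cct7 and Cct8. Snord14c, Snord14d and Snord14e, small nucleolar RNA genes in the introns of Hspa8, were listed at 0. Each is shorter than the 100 bases by which length exceeded effective length in the first quantification. That leaves them no effective length, so the 0 does not show that they were absent.

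Total RNA also holds unspliced and partly processed transcripts, and the tables split each gene into annotated entries. Among 44 members with a mean of 10 TPM or more, 8 had a non-coding entry as their highest, against 14.6% of protein-coding genes at that level. The median coding share of a member's TPM was 66.2%, against 69.3% for those genes. The 8 were Cct3 and Dnajc19 with a retained intron, Dnaja1, Dnajb6, Dnajc7 and Dnajc15 with a processed transcript, and Cct8 and Dnajc5 with an entry marked for nonsense-mediated decay. In the second quantification 8 of the 44 were again led by a non-coding entry, but 5 were shared. Cct3, Dnajc7 and Dnajc19 were then led by a coding entry, and Dnaja2, Dnajc13 and Hsph1 by a retained intron. The coding share of Dnajc19 was 42.8% in the first quantification and 90.5% in the second.

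In the first quantification Dnaja1 had the lowest coding share of the 44, with 9.98 ± 0.974% of its TPM in coding entries. Its coding TPM was 0.593 ± 0.137 times that of Dnaja2, although its total TPM was 3.51 ± 0.52 times as high. That turn of order was seen in the first quantification only. In the second, the coding share of Dnaja1 was 26.1% and its coding TPM was 1.56 ± 0.476 times that of Dnaja2, higher in every library. Dnajc15 had 17.1 ± 3.26% of its TPM in coding entries in the first quantification and 9.28 ± 1.65% in the second, where it was below Dnaja1. Dnajc7 had 28.1 ± 1.04% in the first. At the other end of the first quantification, Bag1, Bag5, Dnajb1, Dnajb9, Dnajb11, Dnajb12, Dnajc3 and Hspd1 were all coding.

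**Figure D5:**
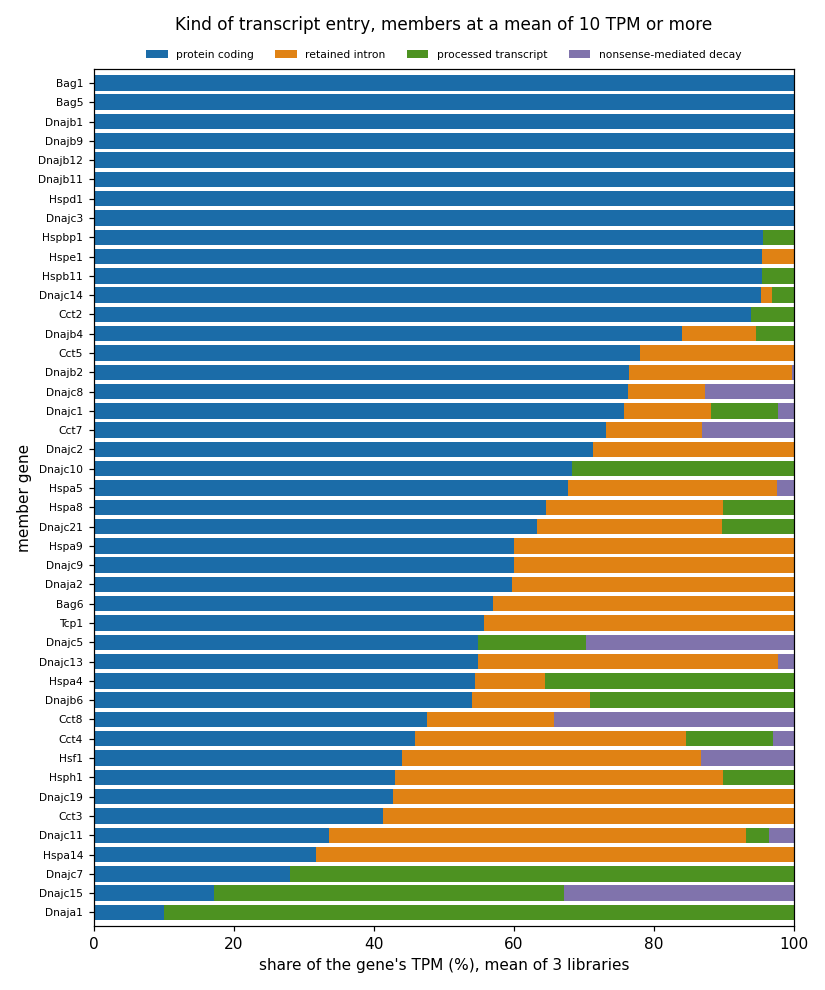
Share of each gene's TPM in annotated entries of each kind, as the mean of 3 libraries, for the 44 members at a mean of 10 TPM or more, sorted by coding share. Coding entries hold all of Dnajb1 and Hspd1, 64.7% of Hspa8 and 9.98% of Dnaja1.

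Which entry led was less certain than the gene's level. The highest entry was the same in both quantifications for 30 of the 44 members. For Hspa8, a coding entry of 2019 bases had 48.8 ± 1.61% of all Hspa8 TPM in the first quantification but 2.25 ± 0.60% in the second, where a coding entry of 2394 bases led with 30.8 ± 1.54%. For Bag1, the coding entry of 1295 bases had all of the TPM in the first and 11.6 ± 11.9% in the second. Substantial shares in more than 1 coding entry, at least 20% each, were found in Bag5, Cct7, Dnajb2, Dnajb12, Dnajc14, Hspb11 and Hspbp1, and Dnajb12 had 3 of them.

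The second quantification gave higher TPM, by a median of 1.31 times over protein-coding genes and 1.38 times over members. Outside 1.5-fold were 21 of 69 members at 1 TPM or more in either, against 27.2% of protein-coding genes, and all 21 were higher in the second. Relative to the median ratio 3 were outside, against 10.4%, of which 2 were among the 21 and Dnajb5 was not. Dnajb9 was higher, with 106 TPM in the second and 45.6 TPM in the first, as was Hspa12b with 1.09 and 0.070 TPM. Dnajb5 was relatively lower, with 5.24 TPM in the second and 6.06 TPM in the first. Before that scaling, the largest ratios above 1 after Hspa12b and Dnajb9 were 1.91 for Dnajc15, 1.90 for Hspb11 and 1.80 for Dnajc18, and ratios below 1 were found in Dnajb5 and Hspa1a.

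Genes that work with the members were abundant as well. All 17 genes of a list of HSP90 proteins and partners were at 10 TPM or more, led by Hsp90ab1 at 427 ± 20.95 TPM, Hsp90aa1 at 174 ± 14.1 TPM and the endoplasmic reticulum form Hsp90b1 at 109 ± 8.25 TPM. None was called for spread in edgeR, against 0.565% of all genes tested. At an unadjusted p under 0.05 were 4 of the 17, Hsp90aa1, Stip1, Stub1 and Chordc1, against 5.69% of all genes. Prefoldin and phosducin-like genes, which hand substrates to the chaperonin ring or regulate it, were at 1 TPM or more in 9 of 9 cases, and 6 reached 10 TPM. In a list of exchange factors and organelle partners, 14 of 14 were at 1 TPM or more and 9 at 10 TPM or more, led by the lectin chaperone genes Calr at 166 ± 6.64 TPM and Canx at 67.1 ± 1.81 TPM. Neither of these lists held a called gene, nor one at an unadjusted p under 0.05 in edgeR.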

How the data were processed

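Per the file headers, the gene and transcript tables deposited by the authors give each estimated count beside its TPM and FPKM, with a posterior SD of the count as a further deposited score of uncertainty. A second deposited transcript table holds estimated counts and TPM and was summed per gene. The build was mm10 with GENCODE annotation M21, per the README deposited with each sample. The alignment and quantification tools were not given in the sources used here. Deposited too was the percentage of a gene's TPM in each transcript, which the authors computed and which was computed again from TPM. The 2 parental alleles were not separated. The 26345 entries that name no gene, spike-ins included, were left out. They held 47879 to 53181 estimated counts a library.

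Members and lists were chosen with earlier results of these data known. Named genes are the ring subunits, the Hsf factors, the 6 highest and 2 lowest of each class, inducible members, members called in any setting, members at 0, those led by a non-coding entry and those beside a threshold. Counts, rounded to whole numbers, were filtered with filterByExpr, scaled with TMM and fitted in edgeR with an intercept-only quasi-likelihood model and a robust trend, and the residual dispersion was set against the trend by an F test over all genes. The test of spread between the 3 libraries was tried on simulated counts of 13142 genes. Of genes altered in 1 library at a mean count of at least 50, it found 100% at 2-fold and 100% at 4-fold. False calls were 6 of 206. The simulation did not vary dispersion from gene to gene, so these rates may not hold for the real libraries. Levels used log2(TPM + 1). Software was R 4.3.3, edgeR 4.0.16, limma 3.58.1, DESeq2 1.42.0, Python 3.11.15, numpy 2.4.6, pandas 2.3.3 and matplotlib 3.10.9.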

Additional observations from a re-analysis of the deposited data

How the results depend on the processing

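Over 11 results and 73 alternatives, 52 kept their value or call, 17 moved, 4 lost a call and 0 changed direction. Members detected numbered 65 with each replicate left out in turn and 42 at a minimum of 10 TPM. The median member level was 3.72 in the second quantification, 3.40 with posterior mean TPM, 3.21 with a pseudocount of 0.1 and 4.41 over members at 1 TPM or more. The ring ratio was 2.11 in the second quantification, 2.42 on coding entries and, in an alternative added after seeing the data, 1.55 without Cct6a. Hspa8 held 72.4% of its class in the second quantification. Members called for spread were 1 with a non-robust trend, against 0.211% of all genes tested. Hspa1a then had an adjusted p of 0.088 in edgeR. With 1 replicate left out, 0 to 3 members were called, against 0.258% to 0.623% of all genes. With no filter on low counts 3 members were called, 3.66%, against 1.33% of all genes. By DESeq2's marking of outlying dispersion there were 3, 4.17%, against 0.941%. Hsph1 was the member added in both. Over its alternatives the adjusted p in edgeR ran from 4.92e-32 to 0.264 for Hspa1b and from 5.69e-08 to 0.485 for Hspa1a. Members with uncertain counts were 2 at a limit of 2% and 0 at 10%. Those outside the fold limit between quantifications were 2 at 2-fold and, added after seeing the data, 3 relative to the median ratio, and 2-unit elements were in 17 members. No cause of these differences was tested.

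No paired analysis was possible because the libraries form 1 group. With 3 libraries, both calls lost without replicate 1 and that of Hspa1a also without replicate 3, the spread of the inducible pair describes these libraries. Depth limits members near 1 TPM, and the split of reads between Hspa1a and Hspa1b and between Hspa8 and its pseudogenes limits their levels. Transcript entries are less certain than genes.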
